A study of Mus musculus with 6 samples.

Results

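Interferon-stimulated genes are the antiviral and immune genes that a cell transcribes after it meets an interferon. The 39 genes described here were taken from a list of gene symbols chosen with earlier results of these data known. Each symbol matched 1 row of the deposited table of 55055 genes. Of the 39, 30 are best known as targets of type I interferons and are called type I led. The other 9 (Irf1, Gbp2, Gbp3, Gbp4, Gbp5, Gbp7, Igtp, Irgm1 and Iigp1) are best known as targets of interferon-gamma and are called interferon-gamma led. The division follows textbook knowledge and is not strict, since most of these genes answer to both kinds of interferon. All 39 genes had enough counts to be tested, with between 113 and 16840 counts in a library.

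The tissue was myometrium, the contractile muscle wall of the uterus, from pregnant mice, and the study asked about TCF23 in its contraction. It was collected at E19.5 by the sample labels and at gestational day 19 by the series design. The libraries labelled TCF23 WT came from 3 wild-type animals, and those labelled TCF23 KO from 3 animals in which Tcf23, a gene for a basic helix-loop-helix protein, had been knocked out with CRISPR/Cas9. Each library came from a different animal. The labels used here give neither strain, nor age of the dams, nor the edited bases, nor how many knockout lines were used. RNA came from whole tissue, so fewer cells of a type and less RNA per cell cannot be told apart.

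Type I interferons bind a receptor made of Ifnar1 and Ifnar2, and signal through the kinases Jak1 and Tyk2 to a complex that holds Stat2 and Irf9. That complex binds the interferon-stimulated response element, ISRE, in target promoters. Interferon-gamma, made mainly by natural killer and T cells, binds Ifngr1 and Ifngr2, and its signal reaches target promoters at the gamma-activated site, GAS. The pregnant uterus holds many leukocytes, and uterine epithelium makes interferon epsilon, a type I interferon encoded by Ifne.

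Total counts ran from 39939686 to 65036402 per library. Tcf23 had 4203, 5970 and 3360 counts in wild-type replicates 1, 2 and 3 and 0, 2 and 1 in the knockout replicates, which matched the labels in 6 of 6 libraries. All 10 smooth muscle markers were detected, with summed levels of 27800 to 33020 CPM (counts scaled to the same library total) in wild-type and 35240, 40430 and 15880 in knockout replicates 1, 2 and 3. Knockout replicate 3 was the lowest library for 9 of these 10 markers and the highest for 7 of 9 uterine epithelium markers. Knockout libraries varied more among themselves than wild-type libraries, with a larger standard deviation (SD) of log2 CPM for 75.9% of all genes tested and for 31 of the 39 interferon-stimulated genes. Knockout replicate 1 also stood apart, in markers of placenta and fetal membranes, which summed to 342.7 CPM there, to 64.15 to 69.42 in wild-type, and to 36.17 and 15.83 in knockout replicates 2 and 3. Tpbpa alone made up 243.7 of the 342.7 CPM. Of the 12 tested markers, 8 were highest in knockout replicate 1, and 1, 2 and 1 in wild-type replicates 1, 2 and 3.

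The promoters of these genes show what the members share in sequence. RefSeq promoters (GRCm38.p6, the assembly of mm10) covered 28 of the 39 genes, from 250 bases before to 50 after each start site, and 5 of the 28 had more than 1 start site. The ISRE core, searched as GAAANNGAAA and on the other strand as TTTCNNTTTC, lay in the promoter of 18 of these 28 genes (64.3%), against 3.99% of all 27025 genes in the promoter table. It was found for 12 of 21 type I led genes and 6 of 7 interferon-gamma led genes. The GAS core, searched as TTCNNNGAA, which reads the same on both strands, lay in the promoter of 4 of 21 type I led and 4 of 7 interferon-gamma led genes, against 9.55% of all genes. Matches of the ISRE and GAS words can overlap, as they did in Bst2. A match describes the letters only.

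The windows printed here are 80 bases long, end before the start site and run 5′ to 3′ on the strand of the gene, with every ISRE core in capitals. Isg15 (chr4:156200840-156200919, minus strand) holds 3 cores, each overlapping the next, the most of the 28 members with a promoter here. Ifit1 (chr19:34640769-34640848, plus strand) holds 2 separate cores. Ifit3 (chr19:34583372-34583451, plus strand) and its neighbour Ifit3b (chr19:34607768-34607847, plus strand) have the same letters at 80 of 80 positions. Gbp2 (chr3:142620569-142620648, plus strand), Gbp7 (chr3:142530248-142530327, plus strand) and Igtp (chr11:58199476-58199555, plus strand) represent the interferon-gamma led genes.
Isg15: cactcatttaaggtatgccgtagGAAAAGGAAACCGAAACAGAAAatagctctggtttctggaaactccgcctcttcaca
Ifit1: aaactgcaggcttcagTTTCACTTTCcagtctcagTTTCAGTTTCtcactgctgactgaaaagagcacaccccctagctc
Ifit3: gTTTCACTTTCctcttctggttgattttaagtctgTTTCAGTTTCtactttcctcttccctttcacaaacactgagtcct
Ifit3b: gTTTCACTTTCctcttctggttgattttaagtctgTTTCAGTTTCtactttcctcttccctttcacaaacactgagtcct
Gbp2: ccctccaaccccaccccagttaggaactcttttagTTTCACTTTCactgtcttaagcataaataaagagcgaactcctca
Gbp7: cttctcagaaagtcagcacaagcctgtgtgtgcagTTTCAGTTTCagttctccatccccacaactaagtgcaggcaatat
Igtp: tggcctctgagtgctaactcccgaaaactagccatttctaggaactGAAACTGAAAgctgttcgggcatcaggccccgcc

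Every member was expressed in every library. Per kilobase of annotated exon, mean wild-type levels ran from 0.91 CPM for Mx2 to 213 CPM for Bst2, which encodes the virus tether tetherin, with a median of 6.82. After Bst2 came Ifi27, a mitochondrial and nuclear envelope protein gene (38.8), Gbp2 (20.1), Isg15 (17.5) and Samd9l (14.8). The lowest levels per kilobase besides Mx2 were those of Oas3 (1.19), Gbp5 (1.32) and Gbp4 (1.66). Levels below are CPM of whole genes, not per kilobase.

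No interferon-stimulated gene passed the test between knockout and wild-type. In edgeR's quasi-likelihood test with Benjamini-Hochberg adjustment over all genes, 0 of 39 were higher and 0 lower at an adjusted p under 0.05, against 0% of the 19599 genes tested that were called higher and 0.0204% called lower. Ifi35 alone had an unadjusted p under 0.05, and was higher, where 5.27% of all genes had one and were higher and 3.29% had one and were lower. DESeq2 likewise called 0 of 39 at an adjusted p under 0.05, against 1.19% of the genes it adjusted called higher and 0.646% lower. DESeq2's unadjusted p was under 0.05 for 1 of 39, a higher gene, against 3.61% of all genes higher and 2.11% lower. A fit of edgeR with the replicate number as a block also called 0 of 39, against 0.0102% of all genes higher and 0.0255% lower. The smallest adjusted p of a member was 0.509 in edgeR and 0.414 in DESeq2. Standard errors (SE) of the log2 changes ran from 0.11 to 0.29, which bounds what 3 animals per genotype could resolve.

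**Figure D1:**
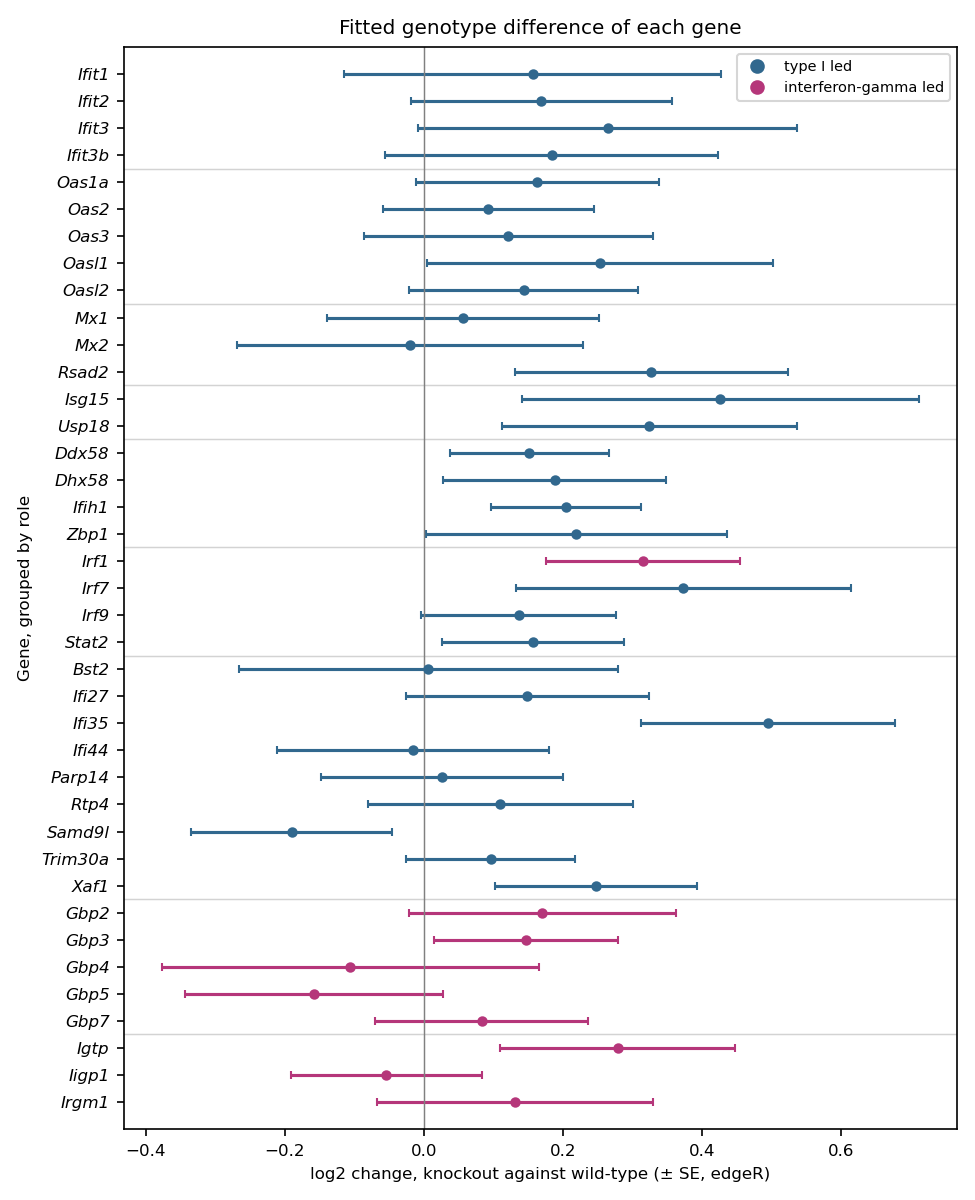
Fitted log2 change of each of the 39 genes (horizontal axis, knockout against wild-type, bars ± SE from edgeR), grouped by role and coloured by class. Points run from −0.19 for Samd9l to 0.49 for Ifi35, and most bars reach or cross 0.

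Small differences leaned to the knockout side. Of the 39 log2 changes, 33 were positive and 6 negative, with a median of 0.15, while 52.1% of all genes tested were positive with a median of 0.01. The 33 are not separate pieces of evidence, because all members were read in the same 6 libraries. Knockout and wild-type libraries did not overlap for 3 genes, Ifi35, Irf1 and Ifih1, all higher in knockout, against 7.22% of all genes higher and 7.01% lower without overlap. A share of 3 in 39 is close to that background.

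**Figure D2:**
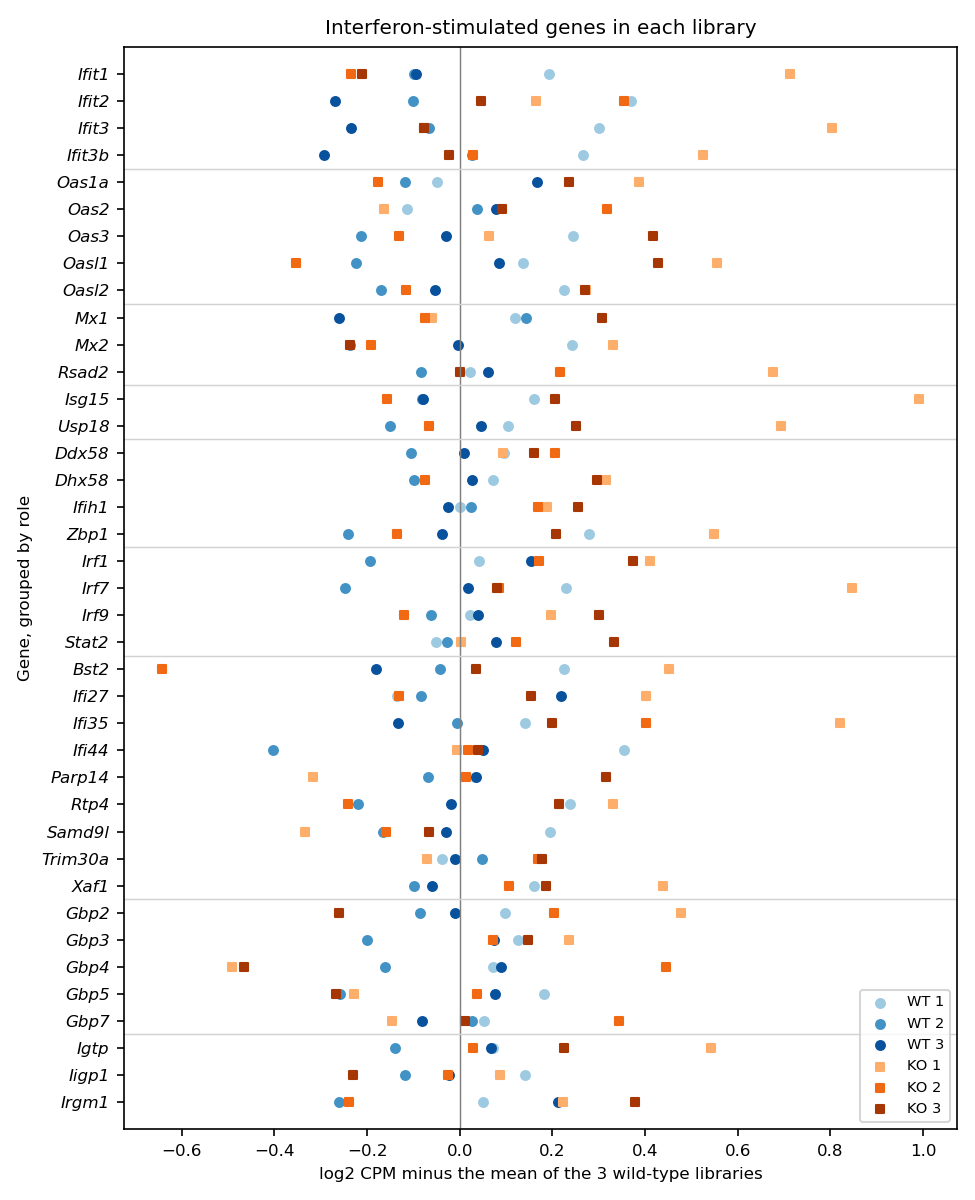
Log2 CPM of each gene in each of the 6 libraries minus the mean of the 3 wild-type libraries (circles wild-type, squares knockout), grouped by role. Knockout replicate 1 has the highest value of 22 genes and the lowest of 6, among them Gbp4, Gbp7 and Parp14.

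The 3 genes without overlap belong to different roles. Ifi35 (ENSMUSG00000010358, mm10 chromosome 11, 101448407 to 101458698, plus strand) encodes a leucine zipper protein of the innate immune response. It had 20.02, 18.08 and 16.54 CPM in wild-type replicates 1, 2 and 3 and 32.08, 24.00 and 20.85 CPM in knockout. Each knockout value was above each wild-type value, though knockout replicate 3 lay close to wild-type replicate 1. The means were 18.2 ± 1.75 and 25.6 ± 5.79 CPM (SD, n = 3 per genotype), and the log2 change was 0.49 ± 0.18 SE (edgeR adjusted p = 0.509). With each library left out in turn the log2 change stayed between 0.31 and 0.62.

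Irf1 encodes a transcription factor that interferon-gamma induces directly through a GAS in its promoter. Its levels were 23.66, 20.10 and 25.58 CPM in wild-type and 30.57, 25.91 and 29.80 CPM in knockout. The lowest knockout value and the highest wild-type value were nearly equal. The log2 change was 0.32 ± 0.14 SE (edgeR adjusted p = 0.601).

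Ifih1, which encodes the RNA sensor MDA5, varied little within each genotype. Wild-type libraries had 21.63, 21.97 and 21.23 CPM and knockout libraries 24.64, 24.29 and 25.78 CPM. The 2 groups were separate and tight, and the difference was small, a log2 change of 0.20 ± 0.11 SE (edgeR adjusted p = 0.693). The other sensors overlapped between genotypes: Ddx58, the gene for the RNA sensor RIG-I, had 35.58, 30.97 and 33.49 CPM in wild-type and 35.53, 38.38 and 37.21 in knockout, and log2 changes were 0.19 for Dhx58, a RIG-I-like regulator, and 0.22 for Zbp1, a sensor of Z-form nucleic acids.

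Isg15 and Usp18 form the pathway of the ubiquitin-like protein ISG15. Isg15 (ENSMUSG00000035692, mm10 chromosome 4, 156199455 to 156200796, minus strand) encodes the modifier itself and had 14.70, 12.43 and 12.45 CPM in wild-type and 26.19, 11.79 and 15.17 CPM in knockout. Knockout replicate 1 was 1.98 times the wild-type mean, and knockout replicate 2 was below every wild-type library. Usp18, whose protease removes ISG15 and dampens the type I receptor, had 12.03, 10.06 and 11.54 CPM in wild-type and 18.09, 10.67 and 13.32 in knockout. It showed the same order of the knockout libraries. Log2 changes were 0.43 ± 0.29 SE for Isg15 (edgeR adjusted p = 0.780) and 0.32 ± 0.21 SE for Usp18 (edgeR adjusted p = 0.777), and without knockout replicate 1 the values were 0.04 and 0.10.

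The IFIT proteins bind foreign RNA, and their 4 genes lie together on chromosome 19 (mm10, 34550694 to 34650009). Ifit3 had 27.01, 20.95 and 18.63 CPM in wild-type and 38.31, 20.79 and 20.78 in knockout. Ifit1, added once its values were known, followed the same form, with 18.95, 15.47 and 15.52 CPM in wild-type and 27.20, 14.08 and 14.32 in knockout. In both genes knockout replicate 1 was the highest library and the other knockout libraries lay within or below the wild-type range. Log2 changes of Ifit3, Ifit1 and Ifit3b were 0.26, 0.16 and 0.18, and turned to −0.09, −0.22 and −0.01 without knockout replicate 1. Ifit2 differed in form, with 37.68, 27.19 and 24.21 CPM in wild-type and 32.67, 37.32 and 30.12 in knockout, so that wild-type replicate 1 was highest. Ifit3 and Ifit3b share much sequence, and 51.2% of the 50-base words of Ifit3 transcripts also occur in Ifit3b, so the split of counts between them is uncertain.

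Viperin, encoded by Rsad2, makes a chain-terminating nucleotide, and the MX proteins are dynamin-like GTPases. Rsad2 had 11.34, 10.54 and 11.65 CPM in wild-type and 17.87, 12.98 and 11.17 in knockout. Knockout replicate 3 lay within the wild-type range and the other knockout libraries above it (log2 0.33 ± 0.20 SE, edgeR adjusted p = 0.753). Mx1 had 8.32, 8.46 and 6.39 CPM in wild-type and 7.35, 7.27 and 9.49 in knockout, with full overlap. Mx2 was the least abundant member by CPM, at 3.29 in wild-type and 3.24 in knockout. The deposited table annotates both Mx genes as polymorphic pseudogenes, and many inbred laboratory strains are known to carry defective Mx1 alleles.

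OAS enzymes make oligoadenylates that activate RNase L, and all 5 members had positive log2 changes, 0.09 to 0.25. Oasl2 was the most abundant, with 59.83, 45.50 and 49.31 CPM in wild-type and 61.82, 47.24 and 61.75 in knockout. Oas2 had 32.47, 36.07 and 37.13 CPM in wild-type and 31.40, 43.81 and 37.48 in knockout. The pair put different knockout libraries on top, and every OAS gene overlapped between genotypes. Oas1a shares 57.6% of its 50-base words with Oas1g, which makes its counts uncertain.

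Irf7, Irf9 and Stat2 carry the interferon signal to the promoters. Irf7 (ENSMUSG00000025498, mm10 chromosome 7, 141262706 to 141266481, minus strand), the factor that amplifies type I interferon production, had 53.14, 38.17 and 45.89 CPM in wild-type and 81.59, 48.08 and 47.94 in knockout. Knockout replicate 1 stood well above the rest, and the other knockout libraries lay inside the wild-type range. Its log2 change was 0.37 ± 0.24 SE (edgeR adjusted p = 0.773), and 0.08 without knockout replicate 1. Stat2 had 57.00, 57.93 and 62.35 CPM in wild-type and 59.14, 64.20 and 74.36 in knockout, with knockout replicate 3 on top. Irf9 ran from 41.03 to 44.03 CPM in wild-type and from 39.41 to 52.72 in knockout. Irf7 shares 45 exon bases with Phrf1 on the opposite strand and Irf9 shares 123 with Rnf31 on its own strand, which makes their counts less certain.

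Among the other effectors, Xaf1, a gene for a partner of the apoptosis inhibitor XIAP, came next to Ifi35. It had 20.06, 16.77 and 17.22 CPM in wild-type and 24.36, 19.35 and 20.44 in knockout (log2 0.25 ± 0.15 SE, edgeR adjusted p = 0.745). Bst2 (mm10 chromosome 8, 71534255 to 71537456, minus strand) had 223.5, 185.6 and 168.8 CPM in wild-type and 261.7, 122.5 and 196.1 in knockout. Its knockout libraries held both the highest and the lowest of the 6 values, and the log2 change was 0.01 ± 0.27 SE. Parp14, an ADP-ribosyltransferase gene, had 81.54, 76.08 and 81.73 CPM in wild-type and 63.98, 80.48 and 99.25 in knockout, again with both extremes in knockout. Log2 changes of the remaining effectors were 0.15 for Ifi27, 0.11 for Rtp4, 0.10 for Trim30a, −0.02 for Ifi44 and −0.19 for Samd9l.

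Guanylate-binding proteins and immunity-related GTPases coat and break the vacuoles of intracellular microbes. Gbp2 had 54.04, 47.62 and 50.13 CPM in wild-type and 70.40, 58.18 and 42.16 in knockout. Gbp3 had 29.79, 23.78 and 28.76 CPM in wild-type and 32.16, 28.70 and 30.24 in knockout. Neither gene separated the genotypes (log2 0.17 ± 0.19 and 0.15 ± 0.13 SE). Gbp4, singled out once its values were known, had 13.08, 11.12 and 13.22 CPM in wild-type and 8.83, 16.93 and 8.999 in knockout, so that knockout replicate 2 was the highest library and the other 2 knockout libraries the lowest. Gbp7 was also highest in knockout replicate 2 (30.92 CPM, against 23.03 to 25.27 in wild-type), and Gbp5 had a log2 change of −0.16 ± 0.19 SE. Gbp7 shares 637 exon bases with Gm43802 and 12.7% of its 50-base words with other genes. Gbp4 shares 60 exon bases with Gbp9 on its own strand, so counts of both genes are less certain.

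The immunity-related GTPase genes did not share 1 order of the knockout libraries. Igtp had 14.45, 12.49 and 14.42 CPM in wild-type and 20.05, 14.03 and 16.07 in knockout (log2 0.28 ± 0.17 SE, edgeR adjusted p = 0.759). Irgm1, a regulator of the family, had 59.53, 47.98 and 66.62 CPM in wild-type and 67.15, 48.73 and 74.79 in knockout. Among knockout libraries, both were lowest in replicate 2, as was Gbp3, whereas Gbp4 and Gbp7 were highest there. Iigp1 had 29.88, 24.94 and 26.67 CPM in wild-type and 28.77, 26.63 and 23.07 in knockout, with full overlap. Igtp shares 162 exon bases and 11.8% of its 50-base words with its neighbour Irgm2, which makes its counts uncertain.

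**Figure D3:**
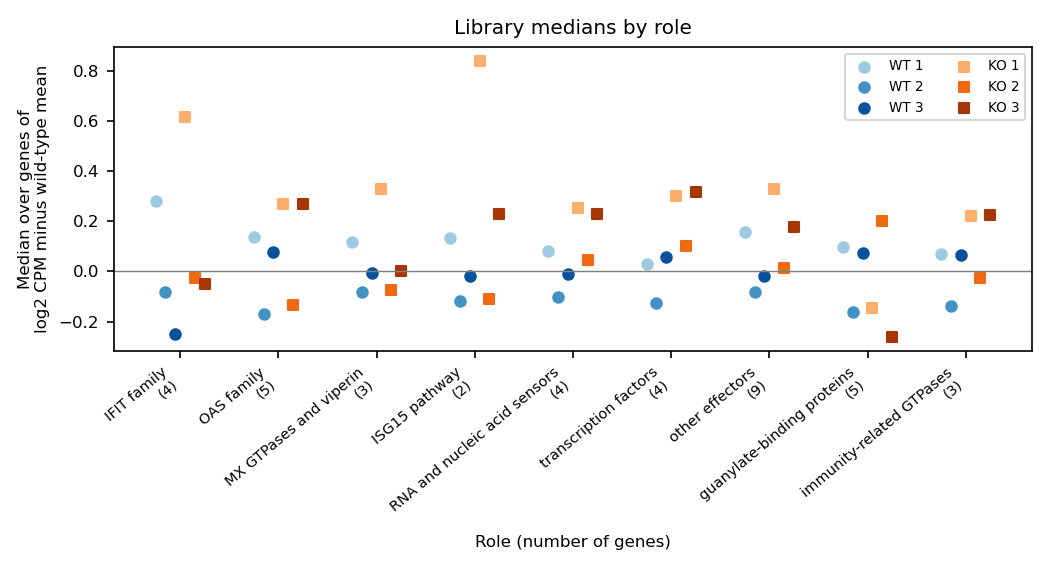
Median over the genes of each role (number in parentheses) of log2 CPM minus the wild-type mean, for each library (circles wild-type, squares knockout). Knockout replicate 1 is highest for the ISG15 pathway (0.84) and the IFIT family (0.62) and below 0 for guanylate-binding proteins (−0.15), where knockout replicate 2 is highest (0.20).

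Among the 39 genes, type I led and interferon-gamma led members had similar median genotype differences. The median log2 change was 0.16 over the 30 type I led genes (27 positive, 3 negative) and 0.13 over the 9 interferon-gamma led genes (6 positive, 3 negative). In edgeR 0 of either class were called, against 0% of all genes higher and 0.0204% lower. The lists of targets outside the 39, given below, differed more, with medians of 0.11 for type I led and 0.33 for interferon-gamma led targets. Library medians of type I led genes, as log2 CPM minus that of wild-type on average, were 0.15, −0.10 and −0.01 in wild-type replicates 1, 2 and 3 and 0.33, −0.08 and 0.19 in knockout. Those of interferon-gamma led genes were 0.07, −0.16 and 0.07 in wild-type and 0.22, 0.07 and 0.01 in knockout. In both classes knockout replicate 1 was the highest library and wild-type replicate 2 the lowest, and the genotypes overlapped. Over all genes tested the library medians lay between −0.002 and 0.006.

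**Figure D4:**
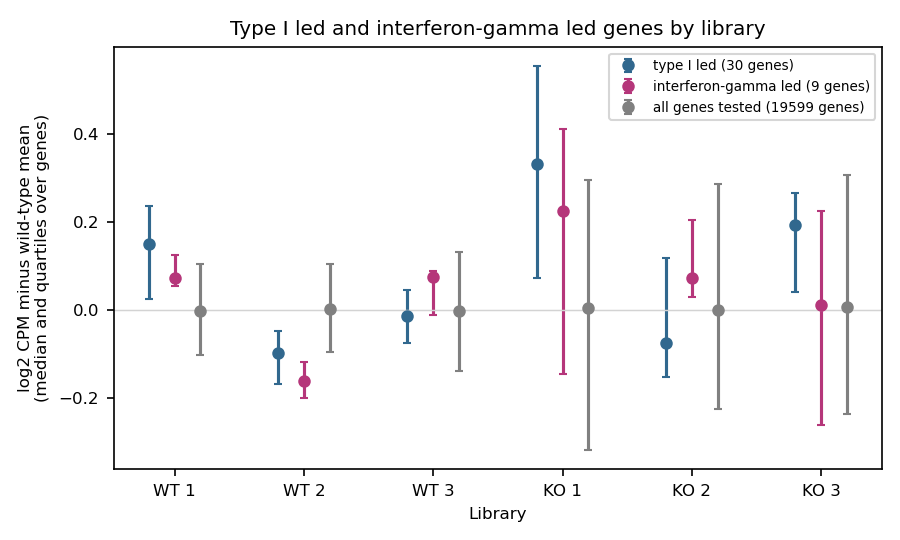
Median (points) and quartiles (bars) over genes of log2 CPM minus the wild-type mean in each library, for type I led, interferon-gamma led and all tested genes. Both classes are highest in knockout replicate 1 (0.33 and 0.22), and in knockout replicate 2 the type I led median is −0.08 while the interferon-gamma led median is 0.07.

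Within a library, the type I led median minus the interferon-gamma led median was 0.08, 0.06 and −0.09 in wild-type and 0.11, −0.15 and 0.18 in knockout. The 2 classes therefore differed in both directions among knockout animals, and the genotypes overlapped. Without knockout replicate 1 the median log2 changes were 0.10 for type I led genes and 0.10 for interferon-gamma led genes. Without knockout replicate 2 they were 0.27 and 0.16, and without knockout replicate 3 they were 0.14 and 0.12. Summed levels were 1093, 938 and 980 CPM in wild-type and 1217, 937 and 1107 in knockout for type I led genes, and 259.6, 220.1 and 257.6 against 287.3, 259.0 and 256.9 for interferon-gamma led genes. Bst2 alone made up 223.5, 185.6 and 168.8 CPM of the type I led sums in wild-type and 261.7, 122.5 and 196.1 in knockout.

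Knockout replicate 1 had the highest value of 22 of the 39 genes, where it had the highest of 23.3% of all genes tested. Knockout replicates 3 and 2 were highest for 8 and 4 members (21.3% and 22.2% of all genes), and wild-type replicate 1 for 5 (10.9%). Wild-type replicate 2 was lowest for 15 members (8.93% of all genes) and knockout replicate 1 for 6 (24.0%). Relative to the wild-type mean it was at 1.98 for Isg15, 1.78 for Irf7, 1.76 for Ifi35, 1.73 for Ifit3, 1.63 for Ifit1, 1.61 for Usp18 and 1.60 for Rsad2. In the same library Gbp4 was at 0.71, Samd9l at 0.79 and Parp14 at 0.80, so the members did not shift as 1 block. These examples were picked by their size in that library. Markers of placenta and fetal membranes stood apart in this library, as given above. Summed natural killer and T cell markers were also highest there (44.13 CPM, against 31.43 and 33.65 in knockout replicates 2 and 3). So were neutrophil markers (32.13 CPM, against 21.22 and 20.12). Sums of macrophage, uterine epithelium, endothelium and smooth muscle markers were highest in other libraries. The part of any of these cell types in these levels was not tested.

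The interferons themselves were scarce, and Ifne was the most abundant. Of 21 ligand genes, 15 had 0 counts in all 6 libraries, which allows at most 0.0461 to 0.0751 CPM per library (3 counts, counting error only). Sequence shared among ligand genes was not searched, and this limit does not cover it. Ifne had 9.37, 5.63 and 9.99 CPM in wild-type and 6.84, 5.07 and 14.95 in knockout (log2 0.10 ± 0.42 SE, edgeR adjusted p = 0.984). Its highest library, knockout replicate 3, also had the highest sum of the 9 uterine epithelium markers and the highest value of 7 of them. The sums were 2786, 1748 and 4033 CPM in wild-type and 2951, 2040 and 5042 in knockout. The part of epithelial content in the Ifne level was not tested.

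Ifng, the interferon-gamma gene, had 12, 13 and 7 counts in wild-type and 14, 10 and 5 in knockout. That is 0.26, 0.25 and 0.12 CPM against 0.22, 0.18 and 0.12, with full overlap (log2 −0.24 ± 0.43 SE, edgeR adjusted p = 0.953). Ifnk and Ifnz had 1 to 6 counts per library, and Ifna11 and Ifnab had 1 count in 1 library each. A difference in these genes was not detectable at this depth.

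Receptor genes for interferons were called in neither direction in edgeR (0 of 6), against 0% of all genes higher and 0.0204% lower. With so few calls over all genes, 0 of 6 says little about receptors. Ifnar1 had 69.02, 72.47 and 84.19 CPM in wild-type and 61.13, 67.48 and 80.62 in knockout. Ifnar2, Ifngr1 and Ifnlr1, the last a subunit of the lambda receptor, had log2 changes of 0.07, 0.15 and 0.23. All 6 receptor genes overlapped between genotypes.

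In receptor signalling edgeR called 0 of 10 genes, against 0% of all genes higher and 0.0204% lower. The genotypes did not overlap for 2 of the 10, 1 higher and 1 lower in knockout, against 7.22% of all genes higher and 7.01% lower. Ptpn2, whose phosphatase removes phosphate from Jak1, had 31.53, 31.10 and 28.55 CPM in wild-type and 24.48, 23.58 and 22.31 in knockout. Every knockout library was lower than every wild-type library (log2 −0.37 ± 0.11 SE, unadjusted p = 0.0123 and adjusted p = 0.391 in edgeR). Jak2, a kinase of the interferon-gamma receptor, had 111.7, 114.8 and 126.7 CPM in wild-type and 131.3, 142.1 and 225.2 in knockout (log2 0.50 ± 0.22 SE, edgeR adjusted p = 0.596). Log2 changes were −0.13 for Jak1 and 0.26 for Ptpn6. Of the 15 tested genes tied to nucleic acid sensing upstream of interferon, which are not all sensors, 0 were called, beside the same shares of all genes. Those with the smallest p were Irf5 (log2 0.35), Mavs (0.19), Ticam1 (0.21) and Tbk1 (−0.14).

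Targets outside the 39 genes were called in neither direction by edgeR, where 0% of all genes were called higher and 0.0204% lower. Higher with an unadjusted edgeR p under 0.05 were 4 type I led and 5 interferon-gamma led ones (5.27% of all genes). Both lists were chosen with earlier results of these data known, so their shares are not independent evidence. Of 39 other type I led targets, 28 were positive and 11 negative (median log2 0.11), 0 were called, and 5 were higher without overlap, against 7.22% of all genes. Lgals9, encoding galectin-9, had 63.21, 56.42 and 57.96 CPM in wild-type and 104.1, 73.65 and 72.77 in knockout. Log2 changes of the next genes were 0.43 for Lgals3bp, 0.51 for Oas1c and 0.62 for Ms4a4c, each with an edgeR adjusted p of at least 0.477.

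Of 29 tested interferon-gamma led targets outside the 39 genes, 26 were positive and 3 negative, with a median log2 change of 0.33, and edgeR called 0. The groups did not overlap for 6 of the 29, all higher in knockout, against 7.22% of all genes higher and 7.01% lower. As this list was chosen with earlier results of these data known, its share is not independent evidence. Tap2, a subunit of the peptide transporter that loads MHC class I, had 14.92, 15.18 and 14.04 CPM in wild-type and 22.86, 20.07 and 18.78 in knockout. All 3 knockout libraries lay well above the wild-type range, yet the gene missed the threshold (log2 0.48 ± 0.13 SE, edgeR adjusted p = 0.339). Tap1, the partner subunit, had 25.64, 23.99 and 27.99 CPM in wild-type and 38.08, 30.24 and 37.24 in knockout (log2 0.44 ± 0.14 SE, edgeR adjusted p = 0.409).

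Among scarce interferon-gamma targets, 2 also separated the genotypes. Gbp8, a guanylate-binding protein gene outside the 39, had 1.01, 0.67 and 0.98 CPM in wild-type and 1.65, 1.60 and 1.78 in knockout (log2 0.92 ± 0.26 SE, edgeR adjusted p = 0.362). Serpina3g, a serine protease inhibitor gene, had 0.77, 0.35 and 0.50 CPM in wild-type and 1.57, 2.29 and 0.95 in knockout. Its log2 change was 1.58 ± 0.43 SE, with an adjusted p of 0.341 in edgeR and 0.0336 in DESeq2, the only call DESeq2 made in the pathway lists. Gbp8 lies beside Gbp4 and overlaps it by 61 exon bases.

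**Figure D5:**
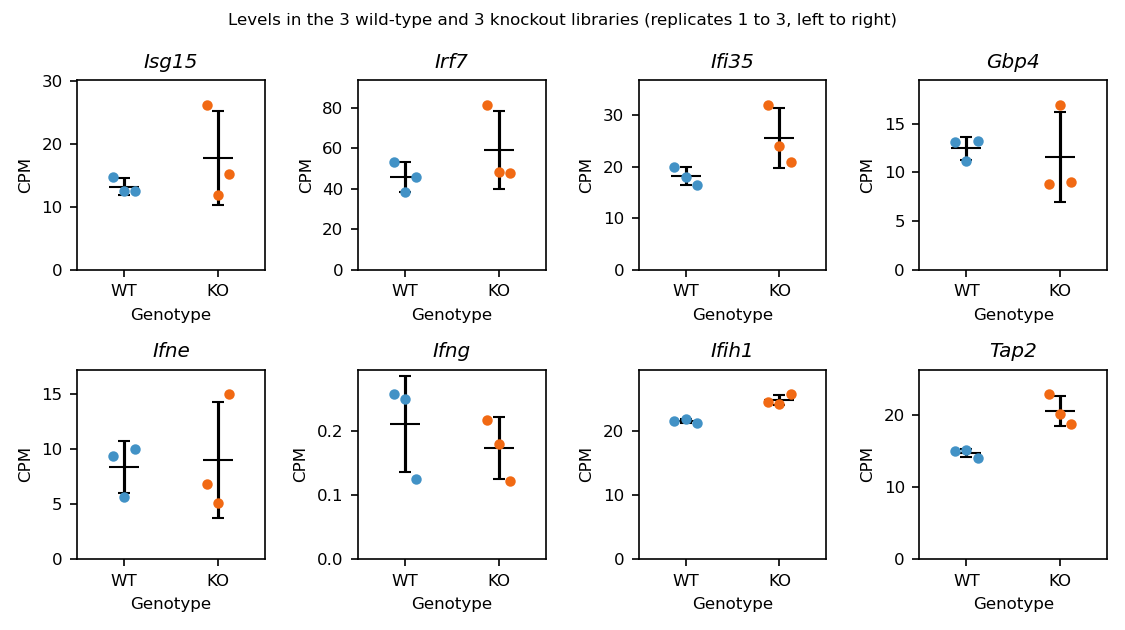
CPM of 8 genes in the 3 wild-type and 3 knockout libraries (points), with mean and SD (bars), each axis starting at 0. Isg15 and Irf7 have 1 high knockout library (26.2 and 81.6 CPM), whereas all 3 knockout values of Ifih1 and Tap2 lie above the wild-type values.

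Markers of leukocytes were measured beside these genes, and edgeR called 0 in each list, against 0% of all genes higher and 0.0204% lower. The marker lists were chosen with earlier results of these data known, so their shares are not independent evidence. Unadjusted edgeR p-values under 0.05, all in the higher direction, were had by 14 of 21 natural killer and T cell and 4 of 5 neutrophil markers. The same held for 2 of 15 macrophage and monocyte and 1 of 6 plasmacytoid dendritic cell markers. Among all genes, 5.27% had such a p and were higher, and 3.29% had one and were lower. Of 21 tested natural killer and T cell markers, 20 were positive and 1 negative, and 3 were called higher in DESeq2, against 1.19% of all genes. Without overlap, 15 of the 21 were higher, against 7.22% of all genes. Their summed level was 19.52 to 21.11 CPM in wild-type and 31.43 to 44.13 in knockout, while Ifng, which such cells make, overlapped as given above. Of 5 tested neutrophil markers 4 were positive and called higher in DESeq2 (1.19% of all genes), with sums of 7.03 to 11.7 CPM in wild-type and 20.1 to 32.1 in knockout, and Ly6g, Ngp and Elane were among those too scarce to test, with 0 counts in at least 1 library each. Macrophage and monocyte markers were positive in 11 of 15, 2 of them called higher in DESeq2 (1.19% of all genes), with overlapping sums of 1765 to 2386 CPM in wild-type and 1985 to 2395 in knockout. Plasmacytoid dendritic cell markers were positive in 6 of 6 tested. Most of that list's summed level came from Tcf4, Bst2 and Klk1, which other cells also express, so no sum is given. Siglech, its most specific marker, had 0.71, 0.87 and 0.87 CPM in wild-type and 0.67, 1.24 and 1.02 in knockout, with overlap.

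Endothelial markers summed to 710.0, 642.0 and 583.7 CPM in wild-type and 603.8, 832.8 and 435.0 in knockout. Knockout replicate 2 had the highest sum, and was also the highest library for Gbp4, Gbp7, Ddx58 and Oas2. The same library was highest for 8 of the 10 smooth muscle markers. Of the 8 endothelial markers, 5 were positive and 0 were called, and uterine epithelium had 5 of 9 positive, placenta and fetal membranes 7 of 12 and smooth muscle 5 of 10, with 0 called in each. Over all genes edgeR called 0% higher and 0.0204% lower. The part of these cell types in the levels of interferon-stimulated genes was not tested.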

How the data were processed

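RNA of whole myometrium was isolated, poly(A)-selected and made into directional libraries, per the labels' protocols. The authors deposited raw counts per gene for each of 6 libraries, and a table of normalized signal, which is the count times 1 constant per library (0.804 to 1.26). HISAT2 2.2.1, HTSeq 0.9.1, FastQC 0.73 and DESeq2 2.11.40.7 are listed, with mm10 and no roles, in the submitters' processing notes. No source used here gives the annotation release or the strand setting of HTSeq.

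The test was that of edgeR 4.0.16 under R 4.3.3 (filterByExpr, TMM, quasi-likelihood fit, genotype as the only term, Benjamini-Hochberg adjustment over 19599 genes, threshold 0.05). CPM are relative to TMM-scaled library sizes. Exon lengths, overlaps and shared words come from GENCODE M21. Members, classes and lists were chosen with earlier results of these data known. Library values are given for the 10 members with the smallest p and the 2 most abundant per role, with Ifit1, Gbp4 and Gbp7 added after their values were seen. Up to 4 tested genes with the smallest p are named per pathway list, and each interferon ligand with any count. Of the 39 members, 13 share exon bases with another gene and 6 share over 10% of their 50-base words.

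No pair of replicates was a repeat of one library (chi-square over its degrees of freedom at least 32.5). Nothing beyond the labels says how the animals were raised, so p-values measure the spread between these samples. Libraries with the same replicate number deviated together (correlation over genes 0.147, 0.196 and 0.217). Other pairs had correlations from −0.223 to 0.061, with each genotype centred on its own mean. The numbers were therefore taken as possible pairs and a replicate block was fitted as an alternative. Further alternatives were no filter, scaling by upper quartile or RLE, a filter of CPM 1 in 3 libraries, DESeq2 1.42.0, limma-voom (limma 3.58.1), limma on log2 of the deposited normalized signal plus 1, and leaving out each library. The fits were tested on simulated data.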

Additional observations from a re-analysis of the deposited data

How the results depend on the processing

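Members called stayed at 0 higher and 0 lower under every alternative run, and with each library left out. The median log2 change stayed positive: over the alternatives that leave out 1 library it ran from 0.10 to 0.25 for all members, from 0.10 to 0.27 for type I led and from 0.05 to 0.16 for interferon-gamma led members. The count of positive members ran from 29, without knockout replicate 1, to 36, without wild-type replicate 1. The smallest adjusted p of a member was 0.286, for Oasl1, without knockout replicate 2. Calls over all genes, 0 higher and 4 lower, became 4 and 8 with upper-quartile scaling, 47 and 34 with no count filter and 245 and 133 with DESeq2, and ran from 0 to 3 higher and 1 to 4 lower with 1 library left out. With the replicate block, 2 genes were higher and 5 lower, and no call of a gene named here changed.

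With all libraries kept, signs changed for Bst2, Ifi44, Mx2, Parp14 and Ifne. Bst2 was −0.058 with limma-voom, −0.056 with limma on log2 values and −0.050 with the replicate block. Ifi44 was 0.019 with upper-quartile scaling, 0.020 with limma-voom, 0.013 with limma on log2 values and 0.016 with the replicate block. Mx2 was 0.018 with upper-quartile scaling, Parp14 −0.00035 with limma on log2 values, and Ifne −0.052 with limma-voom, −0.012 with limma on log2 values and −0.0063 with the replicate block. With 1 library left out more signs changed, also for Ifit3, Ifit1, Ifit3b and Gbp2, which turned negative without knockout replicate 1, and log2 changes ran from −0.27 to 0.25 for Bst2, −0.0051 to 0.34 for Gbp2, −0.48 to 0.064 for Gbp4, −0.062 to 0.19 for Gbp7, −0.20 to 0.18 for Ifi44, −0.22 to 0.32 for Ifit1, −0.087 to 0.43 for Ifit3, −0.0072 to 0.33 for Ifit3b and −0.12 to 0.027 for Iigp1. They ran from −0.0038 to 0.29 for Irgm1, −0.080 to 0.13 for Mx1, −0.22 to 0.11 for Mx2, −0.028 to 0.21 for Oas2, −0.044 to 0.26 for Oas3, −0.15 to 0.18 for Parp14, −0.00068 to 0.27 for Rtp4, −0.49 to 0.39 for Ifne, −0.018 to 0.25 for Ifngr1 and −0.060 to 0.39 for Ifnlr1. The cause was not tested.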
